A study of Mus musculus with 6 samples.

Results

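Schwann cells are the glia of peripheral nerve, and a set of 8 genes commonly used to mark them or their precursors was followed in cultured muscle satellite cells from mice with and without conditional deletion of Nfya. The genes were Sox10, Foxd3, Cdh19, Mbp, Pmp22, Ngfr, S100b and Erbb3, and they are 8 of the 35976 genes listed for each library. They were chosen by name, with earlier results of these data known. All 8 were listed and all 8 passed the filter on low counts that left 17348 genes to test. RNA-seq had been made from satellite cells, the stem cells of skeletal muscle, in 3 libraries of the NF-YA cKO genotype (cKO in what follows) and 3 of NF-YA fl/fl (fl/fl). NF-YA is the regulatory subunit of the trimeric factor NF-Y, which binds the CCAAT box of many promoters. The NF-YA fl/fl group carried Nfya alleles flanked by loxP sites and served as control, and the NF-YA cKO group carried in addition Pax7-CreERT2, a Cre that tamoxifen activates in cells that express Pax7. Mice of both groups were labelled as 5 to 7 weeks of age and tamoxifen as given at 20 mg/ml. Hindlimb muscle had been digested and cells bearing CD31, CD45, CD11b or Sca1 removed with magnetic beads, after which the remaining cells were cultured in growth medium. This depletion carried no antibody against a Schwann cell protein, and Pax7 marks satellite cells in adult muscle.

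Schwann cells derive from the neural crest. Sox10 is the transcription factor that maintains the lineage at all of its stages, Foxd3 is a crest factor that favours glial fate, and neuregulin from axons keeps the cells alive through a receptor made of Erbb3 and Erbb2. Precursors express Cdh19, a cadherin, and Ngfr, the low-affinity neurotrophin receptor p75, which immature and injured cells also carry. Myelinating cells wrap axons with membrane that contains Mbp and Pmp22, and S100b is a calcium-binding protein used to stain the lineage in nerve sections. Several of these genes are not private to glia. Erbb3, Ngfr and Pmp22 are also transcribed by muscle, mesenchymal or other cells. Some Mbp transcripts are also found in immune cells, and melanocytes use Sox10.

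The promoters of 4 members are shown because the deleted factor binds CCAAT, 2 from genes that lay higher in every cKO library (Foxd3 and S100b) and 2 from genes that overlapped between the groups (Pmp22 and Ngfr). Each window covers 250 bases before to 50 bases after the transcription start in RefSeq (GRCm38.p6), 5′ to 3′ on the strand of the gene, and capitals mark CCAAT or its reverse complement ATTGG.
Foxd3, chr4:99656049-99656348, plus strand: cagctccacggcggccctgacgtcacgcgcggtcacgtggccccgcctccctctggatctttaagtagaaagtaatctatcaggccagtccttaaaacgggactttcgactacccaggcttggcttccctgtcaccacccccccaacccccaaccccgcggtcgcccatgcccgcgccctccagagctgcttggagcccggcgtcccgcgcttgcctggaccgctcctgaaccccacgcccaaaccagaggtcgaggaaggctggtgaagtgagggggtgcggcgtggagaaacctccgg
S100b, chr10:76253586-76253885, plus strand: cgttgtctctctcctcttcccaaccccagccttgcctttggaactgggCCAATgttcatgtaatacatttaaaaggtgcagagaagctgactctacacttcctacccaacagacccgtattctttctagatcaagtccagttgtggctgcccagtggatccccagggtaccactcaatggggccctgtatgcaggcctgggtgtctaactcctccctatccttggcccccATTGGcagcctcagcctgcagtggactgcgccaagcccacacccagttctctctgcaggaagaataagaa
Pmp22, chr11:63131207-63131506, plus strand: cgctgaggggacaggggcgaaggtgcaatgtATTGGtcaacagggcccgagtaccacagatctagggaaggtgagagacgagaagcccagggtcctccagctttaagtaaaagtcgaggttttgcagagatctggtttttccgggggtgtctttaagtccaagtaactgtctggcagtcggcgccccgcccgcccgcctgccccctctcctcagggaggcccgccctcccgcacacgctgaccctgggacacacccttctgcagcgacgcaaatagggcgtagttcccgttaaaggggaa
Ngfr, chr11:95587649-95587948, minus strand: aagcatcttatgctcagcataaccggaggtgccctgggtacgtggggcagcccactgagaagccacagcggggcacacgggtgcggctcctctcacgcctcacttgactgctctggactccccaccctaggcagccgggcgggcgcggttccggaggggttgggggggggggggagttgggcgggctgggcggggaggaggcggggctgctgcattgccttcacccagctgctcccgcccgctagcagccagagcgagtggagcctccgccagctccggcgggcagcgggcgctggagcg

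The S100b window held the motif on both strands, with first bases at -202 and -20 from the start. The Pmp22 window shown held 1 match at -219, and the window of the most upstream Pmp22 start held 1 at -47. No match was found in the windows of Foxd3, Ngfr and 2 further Pmp22 starts. In all, 3 of the 7 windows found for 4 of the 8 genes held the motif, and 37.4% of the 32851 RefSeq mouse promoters of the same length did. The motif alone does not show binding. Sequences of the other 4 genes, Mbp, Sox10, Cdh19 and Erbb3, were not used here. These 4 are the members called different below, so no window of a called member was examined. Several of the 7 windows belong to Pmp22 alone.

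The libraries held between 26936230 and 41118984 expected counts, so that 3 counts corresponded to 0.0705 to 0.115 CPM (counts scaled to library size, with edgeR's TMM factors). The deleted form of the Nfya transcript made up 22.3% to 34.2% of the Nfya counts in cKO libraries and 0% in fl/fl libraries, while total Nfya measured 27.5 ± 0.874 CPM in cKO and 28.7 ± 7.20 CPM in fl/fl libraries (SD, n = 3). Libraries of the cKO group resembled each other closely (mean correlation with the others of the group 0.996), whereas fl/fl replicate 3 had the lowest value, 0.971. The methods describe injection of male mice. Xist, the transcript of the inactive X chromosome, stood at 843 ± 8.35 CPM in cKO and at 0.389 ± 0.0846 CPM in fl/fl libraries (SD, n = 3), and the Y-linked Ddx3y at 2 or 3 counts and at 84.9 ± 3.82 CPM, respectively. Every comparison below therefore sets libraries with and without abundant Xist against each other, and genotype and sex-linked expression cannot be told apart.

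The 8 genes did not move as 1 group. Mbp, Sox10 and Cdh19 were called higher in cKO cells, Foxd3 and S100b lay higher in every cKO library without passing the threshold, Ngfr and Pmp22 overlapped between the groups, and Erbb3 was called lower by more than 10-fold. A gene was called when its adjusted p was under 0.01 and its log2 fold change above 1 or below -1 (edgeR quasi-likelihood test, Benjamini-Hochberg adjustment over all tested genes). By this rule 3 of the 8 genes were higher, where 4.65% of all tested genes were, and 1 was lower, where 7.67% were. At an adjusted p under 0.05 the count was 5 higher, against 6.70% of tested genes. In 5 genes all cKO libraries lay above all fl/fl libraries, a pattern held by 29.1% of tested genes, and in 1 gene they lay below, as in 26.2%. The median log2 fold change of the 8 genes was 1.43, and that of all tested genes -0.02. The set was chosen with earlier results of these data known, so these counts and medians describe it and test nothing. In such bulk libraries a change in the number of cells of a type and a change in RNA per cell cannot be told apart.

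**Figure D1:**
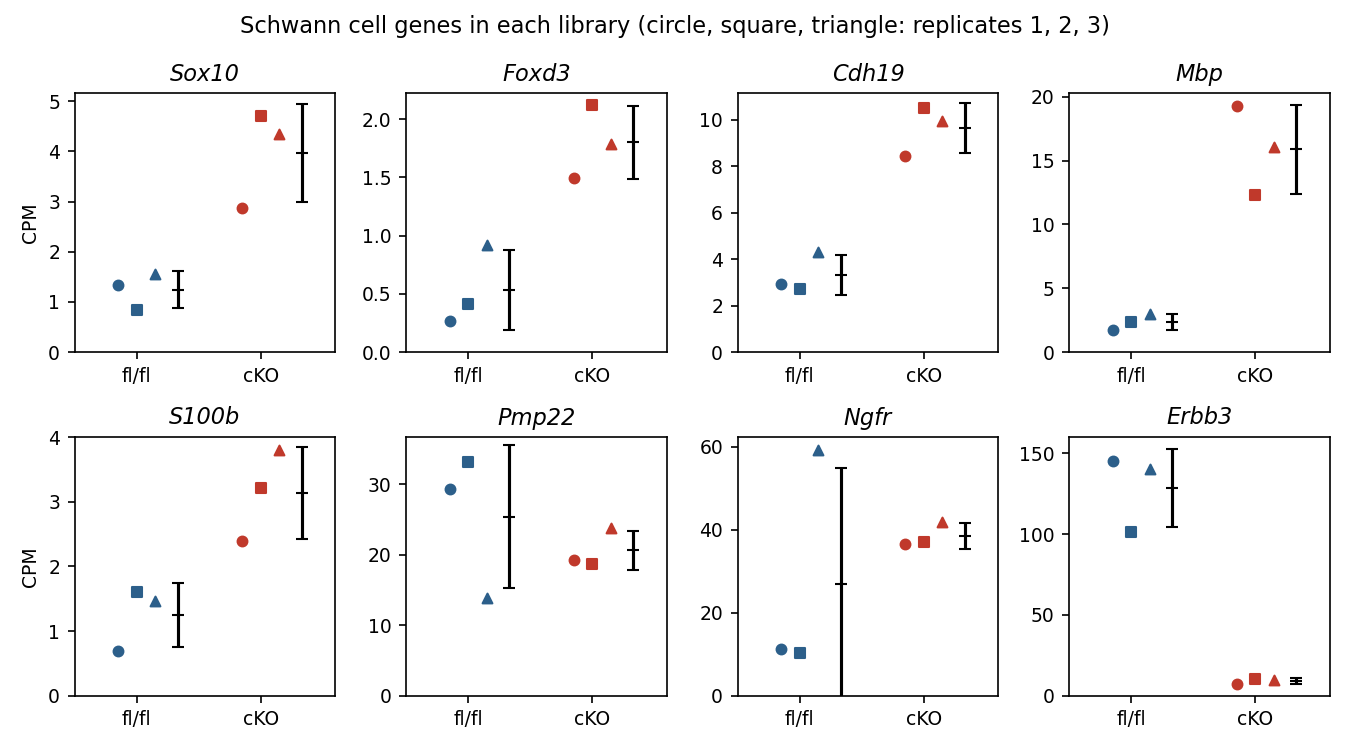
CPM of each gene in each library on a linear axis from 0, with points for replicates 1, 2 and 3 and the mean ± SD of each group (the Ngfr bar in fl/fl, 26.9 ± 28.1, is cut at 0). The groups separate in 6 panels and overlap for Pmp22 and Ngfr, where fl/fl replicate 3 lies apart from replicates 1 and 2.

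Among the transcription factors, Sox10 (chromosome 15, 79154913 to 79164490) measured 2.87, 4.71 and 4.35 CPM in cKO replicates 1 to 3 and 1.34, 0.833 and 1.56 CPM in fl/fl replicates 1 to 3. The lowest cKO library thus lay above the highest control. The counts behind these values were 90, 195 and 185 against 35, 28 and 46. The fold fitted by edgeR was 3.21, a log2 fold change of 1.68 (SE 0.32, adjusted p = 0.00707 by edgeR). This call was narrow. It was lost when any single library other than fl/fl replicate 3 was left out, with adjusted p-values of up to 0.0374, while the log2 fold change kept between 1.45 and 1.89.

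Foxd3 (chromosome 4, 99656299 to 99658671), which acts early in the crest and in glial precursors, was the least abundant of the 8. It measured 1.499, 2.12 and 1.79 CPM in cKO libraries against 0.268, 0.416 and 0.916 CPM in fl/fl libraries, and again the groups did not overlap. Its control values rested on 7, 14 and 27 counts. The difference of 1.75 on the log2 scale (SE 0.44) had an adjusted p of 0.0204 by edgeR and was not called. Without fl/fl replicate 3, the control library in which it was highest, it was called (2.36, adjusted p = 0.00194).

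Cdh19 (chromosome 1, 110888002 to 110977601), the cadherin of Schwann cell precursors, measured 8.45, 10.5 and 9.96 CPM in cKO libraries and 2.94, 2.71 and 4.31 CPM in fl/fl libraries. It had the smallest relative spread within cKO of the 5 genes that lay higher there, with a coefficient of variation of 11.1%. The means of 9.65 ± 1.07 and 3.32 ± 0.865 CPM (SD, n = 3) stood 2.91-fold apart (log2 fold change 1.54, SE 0.23, adjusted p = 0.00282 by edgeR). The call was lost without any 1 of the 3 cKO libraries or without fl/fl replicate 1, at adjusted p-values of up to 0.0193. Of its 5 listed transcripts, NM_001081386.1 held 59.0%, 51.8% and 63.1% of the Cdh19 TPM (a level scaled to transcript length and to the library) in cKO and 70.4%, 65.5% and 72.5% in fl/fl libraries. The share was 11.5 percentage points smaller on average in cKO, without overlap (two-sided exact permutation p = 0.1, the smallest that 3 against 3 libraries allow). Within each library Cdh19 kept to Sox10, with a TPM ratio of 1.54 to 2.09 in cKO and 1.54 to 2.29 in fl/fl.

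Mbp (chromosome 18, 82475091 to 82585637), which encodes myelin basic protein, rose most of the 8. It measured 19.3, 12.3 and 16.1 CPM in cKO libraries and 1.72, 2.38 and 3.02 CPM in fl/fl libraries. The lowest cKO value was several times the highest control value. The fitted fold was 6.66 (log2 fold change 2.74, SE 0.27, adjusted p = 0.000746 by edgeR), and the call held in each of the 15 alternative analyses, over which the log2 fold change ranged from 1.69 to 2.93.

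The gene has an upstream start that yields the golli transcripts, found in immune and neural cells, and a downstream start inside it that yields the classic transcripts of compact myelin. The split was estimated by RSEM from reads that the forms partly share. Transcripts from the upstream start measured 16.6, 7.98 and 11.6 CPM in cKO against 1.21, 1.57 and 1.54 CPM in fl/fl, a ratio of means of 8.37 (two-sided exact permutation p = 0.1). Those from the downstream start measured 2.71, 4.31 and 4.45 CPM against 0.135, 0.814 and 1.47 CPM, a ratio of 4.75 (two-sided exact permutation p = 0.1). Both forms were thus higher in every cKO library. The golli transcript NM_001025245.1, at 4820 bases longer than the other Mbp transcripts with a matched start, took 80.2%, 64.9% and 66.4% of the Mbp counts in cKO and 70.2%, 58.4% and 51.3% in fl/fl libraries (two-sided exact permutation p = 0.3). Corrected for length, its share of the Mbp TPM was 63.5%, 43.1% and 45.7% in cKO and 54.0%, 36.6% and 30.2% in fl/fl libraries (two-sided exact permutation p = 0.4). The shares overlapped between the groups on both scales, and by TPM the transcript held less than the rest of the gene in 4 of the 6 libraries.

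**Figure D2:**
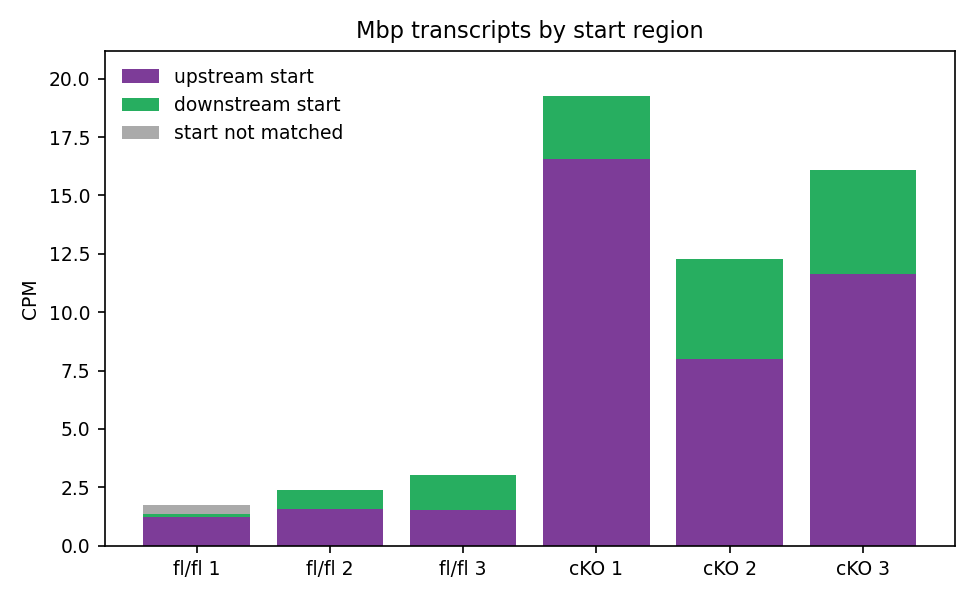
Stacked bars of the CPM that RSEM assigned to Mbp transcripts of the upstream start, of the downstream start and without a matched start, in each library. In counts, which are not corrected for transcript length, the upstream start makes up the larger part of every bar, with 7.98 to 16.6 CPM in cKO and 1.21 to 1.57 CPM in fl/fl libraries.

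Pmp22 (chromosome 11, 63128982 to 63159547), a tetraspan membrane protein of compact myelin that fibroblasts also make, did not separate the groups. It measured 19.3, 18.7 and 23.8 CPM in cKO libraries and 29.2, 33.1 and 13.8 CPM in fl/fl libraries. Replicates 1 and 2 of the controls lay above all cKO libraries and replicate 3 lay below them. The log2 fold change was -0.30 (SE 0.31, adjusted p = 0.470 by edgeR), and without fl/fl replicate 3 it was -0.60 (adjusted p = 0.00949), short of the fold limit. The transcript NM_008885.3, whose start lies next to that of the Pmp22 promoter printed above, held 87.8% to 96.8% of the Pmp22 TPM in cKO and 92.3% to 97.8% in fl/fl libraries. Transcripts of the most upstream start held at most 2.79% and 3.03% of the counts in the respective groups.

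Of the receptors, Ngfr (chromosome 11, 95568818 to 95587698) measured 36.4, 37.0 and 42.0 CPM in cKO libraries and 11.2, 10.2 and 59.3 CPM in fl/fl libraries. The cKO values were close together, with a coefficient of variation of 7.90%, whereas that of the controls was 104% because replicate 3 stood far above replicates 1 and 2. The log2 fold change was 0.52 (SE 0.65, adjusted p = 0.563 by edgeR). Without fl/fl replicate 3 it was 1.84 (adjusted p = 9.56e-05) and the gene was called higher, so whether Ngfr differed rested on that library.

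Erbb3 (chromosome 10, 128567523 to 128589635), the neuregulin-binding receptor on which Schwann cells depend, went the other way. It measured 7.27, 10.1 and 9.96 CPM in cKO libraries and 145, 101 and 140 CPM in fl/fl libraries. Every cKO library lay far below every control, at 228 to 424 counts against 3399 to 4130. The fitted fold was 14.1 (log2 fold change -3.82, SE 0.21, adjusted p = 8.68e-05 by edgeR), and the call held in all 15 alternative analyses, at -3.97 to -3.45. Relative to Sox10, the TPM of Erbb3 was 1.41 to 1.67 times as high in cKO and 59.5 to 79.6 times as high in fl/fl libraries, so the control level of Erbb3 was not in the proportion to Sox10 seen in cKO. All 10 differentiated muscle markers tested were called lower in cKO as well, with a median log2 fold change of -6.69 and the largest falls in the myosin genes Myh8 and Myh3. Their part in the Erbb3 result was not tested.

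S100b (chromosome 10, 76253836 to 76261319) measured 2.39, 3.21 and 3.81 CPM in cKO libraries and 0.688, 1.61 and 1.46 CPM in fl/fl libraries. The groups did not overlap, on 75 to 162 counts against 18 to 54. The 2.49-fold difference (log2 fold change 1.32, SE 0.36) had an adjusted p of 0.0259 by edgeR and was not called. With DESeq2, the tool of the study, both S100b (1.299, adjusted p = 0.00355) and Foxd3 (1.74, adjusted p = 0.00216) were called, which brought the number of genes called higher to 5. DESeq2 also called more genes over all tested genes, 986 higher against 806 by edgeR and 1804 lower against 1331.

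**Figure D3:**
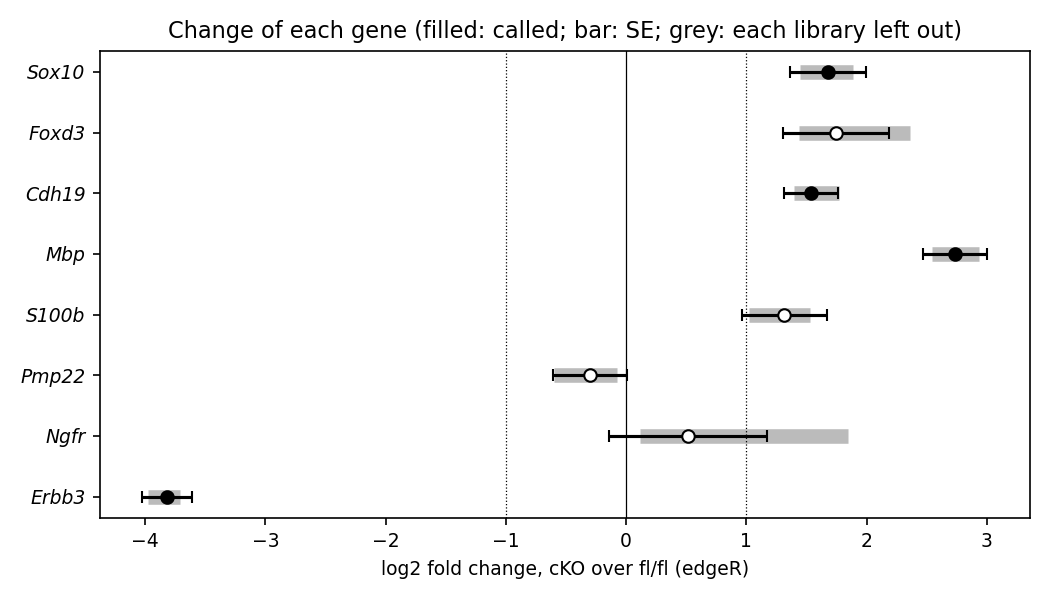
Log2 fold change of each gene (cKO over fl/fl, edgeR) with its SE, filled where called, and in grey the range over fits that each lacked 1 library. The dotted lines mark -1 and 1. Erbb3 lies alone at -3.82, and the widest grey bar is that of Ngfr, from 0.12 to 1.84.

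Compared per length of transcript, the order of the genes changed with the group. In cKO libraries Pmp22 (13.1 ± 2.37 TPM) and Ngfr (12.7 ± 1.59 TPM) stood highest and did not differ beyond their spread (SD, n = 3). Mbp followed at 5.09 ± 1.11 TPM, clear of the genes on either side. Cdh19, Erbb3, S100b and Sox10 came next at 2.85, 2.50, 2.23 and 1.65 TPM, each overlapping its neighbour in the order, and Foxd3 was lowest at 0.863 ± 0.0833 TPM. In fl/fl libraries Erbb3 stood first at 37.3 ± 4.30 TPM, above Pmp22 at 17.99 ± 9.70 and Ngfr at 8.40 ± 7.49 TPM, which overlapped. Cdh19, S100b, Mbp and Sox10 followed at 1.03, 0.967, 0.890 and 0.537 TPM, with overlap between neighbours, and Foxd3 was again lowest at 0.263 ± 0.125 TPM. The 5 genes that lay higher summed to 12.5, 11.4 and 14.2 TPM in cKO and to 2.70, 4.32 and 4.04 TPM in fl/fl libraries. These 5 were grouped because they lay higher, so their sums had to separate and test nothing. All 8 genes together went the other way, with 35.7 to 46.7 TPM in cKO and 62.6 to 71.3 TPM in fl/fl libraries. For scale, Pax7, the defining factor of satellite cells, measured 30.9 to 42.8 TPM in cKO and 15.9 to 23.3 TPM in fl/fl libraries.

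**Figure D4:**
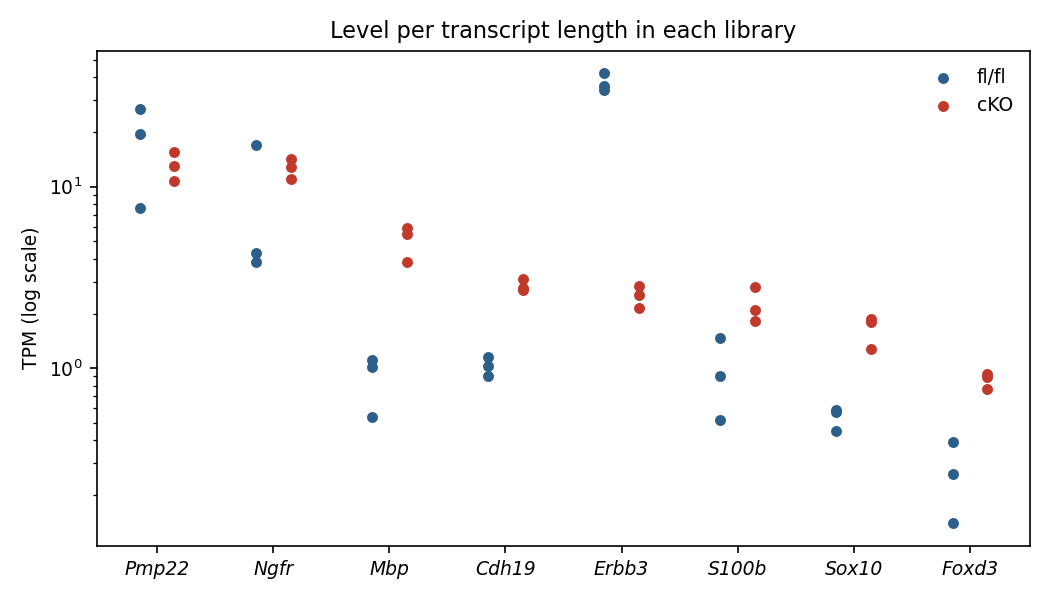
TPM of each gene in each library on a log axis, fl/fl and cKO side by side, ordered by the mean in cKO. Sox10, Foxd3, Cdh19, Mbp and S100b stay at or under 5.93 TPM in all 6 libraries, while Erbb3 lies at 33.9 to 42.1 TPM in fl/fl.

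Wider Schwann cell lists place the 8 genes among others of the lineage. Over all tested genes edgeR called 4.65% higher and 7.67% lower, the shares beside which each list count below stands. Of 14 myelin structure genes outside the set, 10 were tested, of which edgeR called 3 higher and 0 lower (1 lower at an unadjusted p under 0.05, and 2 higher and 0 lower by DESeq2), with a median log2 fold change of 0.38. Mpzl2, an adhesion protein that epithelia also express, measured 9.44, 10.8 and 9.64 CPM in cKO and 0.459, 0.297 and 1.49 CPM in fl/fl libraries (log2 fold change 3.73, adjusted p = 0.00270 by edgeR). Mag, the myelin-associated glycoprotein, was called from 10, 18 and 16 counts against 1, 0 and 1, and Ugt8a, which makes the myelin lipid galactosylceramide, from 12, 14 and 16 counts against 2, 2 and 3. Mag and Ugt8a passed the filter on low counts only through their cKO libraries, so a call could only be higher and carries no weight. Ugt8a was named after its values were seen, as the remaining called gene of this list. The most abundant gene of the list, Drp2, a dystrophin-related protein, stood at -0.62 (adjusted p = 0.331) and at 0.21 without fl/fl replicate 3.

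Of 26 precursor and repair cell genes, 21 were tested, with 2 called higher (5 by DESeq2), 1 lower and a median of 0.35. Gdnf, a neurotrophic factor that denervated Schwann cells release, measured 11.1, 9.02 and 9.001 CPM in cKO and 2.52, 1.93 and 3.36 CPM in fl/fl libraries (log2 fold change 1.90, adjusted p = 0.00170 by edgeR). Sox2, a factor of immature glia, was higher by 1.57 (adjusted p = 0.00354). It was called in 7 of the 15 alternative analyses, and the call was lost without any 1 of the 3 cKO libraries or without fl/fl replicate 1 (adjusted p up to 0.0224). Ncam1, a cell adhesion molecule that myogenic cells also carry, was lower (-1.63, adjusted p = 0.00613), and lost its call without the same libraries (up to 0.0307). Gdnf lost its call without cKO replicate 1, cKO replicate 2 or fl/fl replicate 1 (up to 0.0115). Gfap, Gfra3, Shh and Sostdc1 did not pass the filter and had at most 4 counts in any library, and Olig1 was untested as well. Of 26 crest and glial transcription factors, 23 were tested, and the median was 0.12. With 1 called higher and 2 lower, this list stood near the shares of 4.65% and 7.67% over all tested genes. Id2, a helix-loop-helix inhibitor, was called higher (1.18), and Sox8, a relative of Sox10, and Tead1, a partner of Yap, were called lower (-2.15 and -1.03). Egr2, the factor of myelination, stood at -0.27 (adjusted p = 0.725), with 14.3 ± 1.56 CPM in cKO and 17.3 ± 11.3 CPM in fl/fl libraries (SD, n = 3). It was named after its value was seen.

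The pathways of the receptors were also counted. Of 19 other neuregulin and ErbB genes, 16 were tested, with 3 higher, 1 lower and a median of 0.02. Over all tested genes 4.65% were called higher and 7.67% lower. Erbb2, the co-receptor of Erbb3, measured 33.7, 30.4 and 32.4 CPM in cKO and 83.8, 69.1 and 83.0 CPM in fl/fl libraries (log2 fold change -1.29, adjusted p = 0.000433 by edgeR). Both receptor chains were thus lower, Erbb3 by more, and the TPM ratio of Erbb3 to Erbb2 was 0.271, 0.417 and 0.385 in cKO against 2.17, 1.84 and 2.11 in fl/fl libraries. The called increases were Areg (2.11) and Tgfa (2.08), ligands of Egfr rather than of Erbb3, and Errfi1 (1.28), an inhibitor of Egfr and Erbb2. Erbb4 and Nrg3 were untested. Of the 18 neurotrophin and p75 genes, 15 were tested and edgeR called 0 higher and 1 lower, as did DESeq2. At an unadjusted p under 0.05, 0 were higher and 5 lower. Sort1, a partner of p75 for pro-neurotrophins, was called lower, at 16.2, 14.3 and 13.8 CPM against 70.0, 53.5 and 82.2 CPM (log2 fold change -2.22, adjusted p = 0.000347). Rhoa, the most abundant of them and a target of p75, stood at 0.01.

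The relatives of the remaining members were mixed. Of 15 further S100 genes 11 were tested and edgeR called only S100a8, a protein of neutrophils and monocytes, on 108, 74 and 99 counts in cKO against 1, 0 and 0. S100a8 passed the filter only through its cKO libraries. Of 15 genes in the list of cadherins and their catenins 13 were tested, with Cdh3 (2.49) and Cdh6 (1.79) higher and Cdh15 (-1.78), the muscle cadherin, and Cdh13 (-1.30) lower. The calls of Cdh3 and Cdh13 were lost without some single libraries (adjusted p up to 0.0138 for each). Of 5 tested Pmp22 and Emp family genes edgeR and DESeq2 called 0, while 2 were higher and 1 lower at an unadjusted p under 0.05. Emp3, the most abundant of these, stood at 0.83 (adjusted p = 0.0209). Of 8 tested Fox genes both tools called 0, with 1 higher and 2 lower at an unadjusted p under 0.05.

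**Figure D5:**
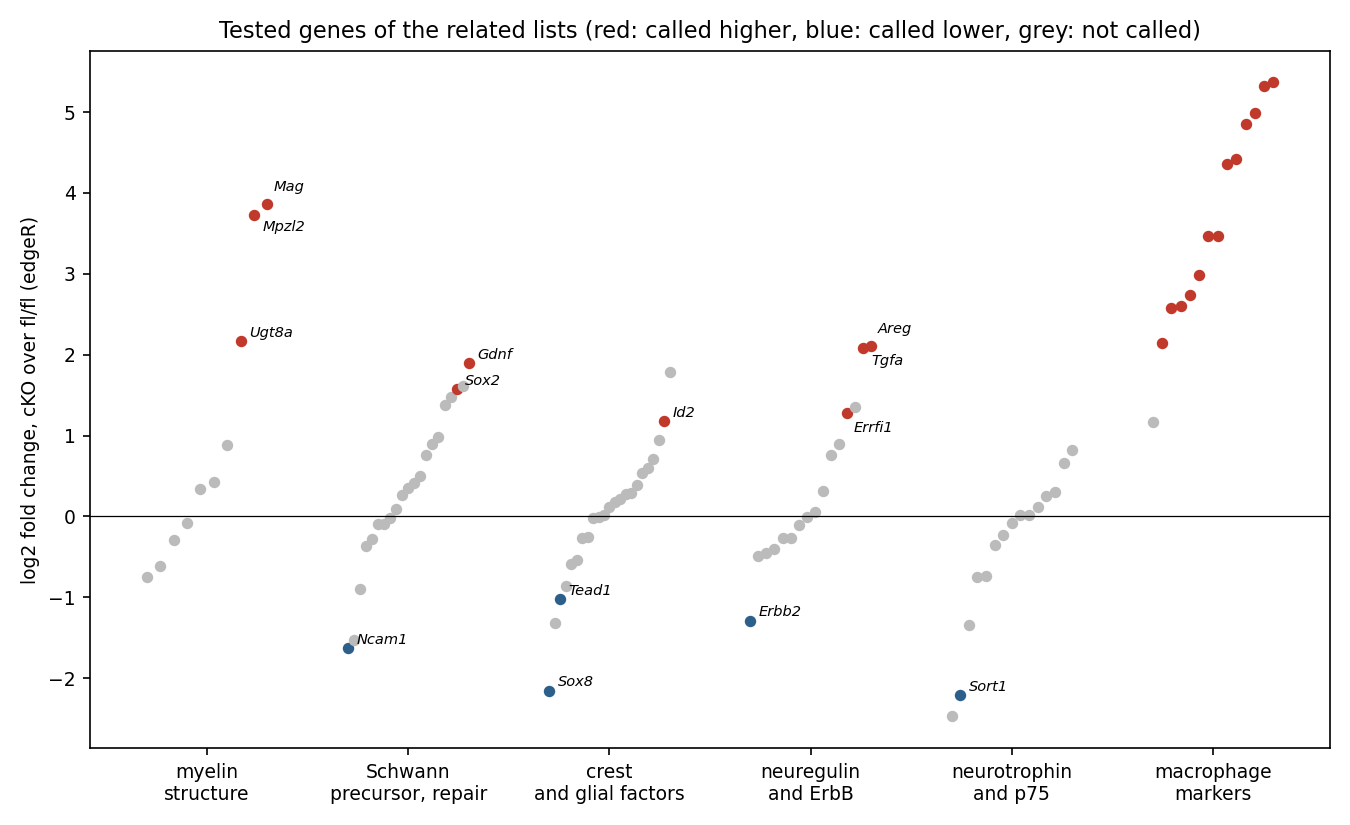
Log2 fold change (cKO over fl/fl, edgeR) of each tested gene in 5 lists related to the set and in the macrophage markers, sorted within each list, with called genes in colour and, outside the macrophage list, named. In the myelin list 3 of 10 genes are red, and among the macrophage markers 13 of 14 are. The Mag value rests on at most 1 count per fl/fl library and is no estimate of size. Mag, Ugt8a and several macrophage markers passed the filter only through cKO libraries, so a call could only be higher.

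Markers of other cell types were measured beside these results. Of 14 macrophage markers 13 were called higher, and their summed level was 161 to 299 TPM in cKO against 6.25 to 20.6 TPM in fl/fl libraries. Several of the 14 passed the filter only through their cKO libraries. Adgre1, which encodes the F4/80 antigen, measured 9.02, 6.59 and 2.75 CPM in cKO and at most 0.238 CPM in fl/fl libraries, and the abundant lysozyme gene Lyz2 was higher by 5.33 on the log2 scale (adjusted p = 0.000567 by edgeR). Macrophage transcripts therefore moved in the direction of Mbp, Sox10 and Cdh19, and their part in these results was not tested. Markers of oligodendrocytes, the other myelinating glia, were mostly at or near 0. Of 7 markers Mobp and Opalin had 0 counts, Mog, Ermn, Olig2 and Nkx2-2 had at most 8, and Cspg4, which other cells share, was the single gene tested (-0.31, adjusted p = 0.466). Melanocytes are another crest lineage that uses Sox10, and of their 8 markers Tyrp1 was at 0 counts in all libraries and Dct and Mlana had at most 2, while Tyr, the tyrosinase of pigment cells, measured 51.7, 44.2 and 55.7 CPM in cKO and 19.6, 25.7 and 32.0 CPM in fl/fl libraries. The groups did not overlap for Tyr, and its log2 fold change of 0.97 (adjusted p = 0.00809 by edgeR) fell short of the fold limit. Mitf, the factor of the lineage, stood at 0.15 (adjusted p = 0.419) and Ednrb, an endothelin receptor, at -0.65 (adjusted p = 0.277). The part of these transcripts in the Sox10 result was not tested. Of 10 neuron markers 5 were tested and edgeR called 0, with 1 lower by DESeq2 and at an unadjusted p under 0.05. Of 8 perineurial and endoneurial markers, Etv1 was called lower (-1.40). Among 10 fibroadipogenic markers edgeR called only Lum, which was higher (2.98), while the median log2 fold change of the list was -0.27. At an unadjusted p under 0.05, 3 were higher and 3 lower, and DESeq2 called 2 higher and 2 lower. Their summed levels were 382 to 531 TPM in cKO and 198 to 821 TPM in fl/fl libraries.

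Checked against their label, the 8 genes did not move together. Sox10, Foxd3, Cdh19, Mbp and S100b lay higher together, whereas Erbb3 fell and Ngfr and Pmp22 overlapped at levels above those of Sox10. The name Schwann cell genes is kept here for the list alone.

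The genes whose profile over the 6 libraries was most like that of each member were listed by Pearson's r of log2(CPM + 1), as a description. With 2 groups of 3 libraries, any gene that differs between the groups can reach a high r. Cdh19 was followed by Mrps28 (r = 0.999) and Mcrs1. Foxd3 was followed most closely by Eya1 (r = 0.999), Tmem171 and Plagl1, and Erbb3 by Zfp697, 4933403O08Rik and Filip1 (r = 0.999). The nearest to Sox10 was Ccdc94 (r = 0.999), to Mbp Nipsnap1 (r = 0.999), to S100b Zeb2os (r = 0.999), to Pmp22 Sobp (r = 0.998) and to Ngfr Xrcc3 (r = 0.997).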

How the data were processed

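RNA-seq (Illumina TruSeq Stranded Total RNA, 500 ng) covered 6 libraries, 3 for each genotype. Per the methods, the authors mapped reads with bowtie2 to transcripts of mm10, and RSEM gave the levels. Its strand setting is not given in the sources used here. The deposited values were expected counts, which RSEM estimates by dividing reads shared between transcripts, and TPM, for genes and transcripts. The isoform files deposited by the authors also gave the percent of a gene's TPM held by each transcript. Nothing states that replicates came from separate animals, so p-values measure only the spread between libraries.

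Expected counts were rounded and tested with edgeR 4.0.16 (quasi-likelihood, TMM, R 4.3.3) on genes for which 2 or more libraries held over 10 counts, and called by the study's limits (adjusted p under 0.01, absolute log2 fold change over 1). The study used DESeq2. Here DESeq2 1.42.0, limma 3.58.1 on log2(TPM + 1) and log2(TPM + 0.1), other scalings, filters and thresholds, a replicate block and leaving out each library were alternatives. The test was checked on simulated data with the same spread for every gene and large changes in well-counted genes alone. That check does not cover genes with few counts or a wide spread among controls, such as Foxd3 and Ngfr. Transcript shares were compared by exact permutation over libraries. The floor of 3 counts concerns counting error only. The SE of a log2 fold change comes from the edgeR fit and includes the spread between libraries. Coordinates are those of GRCm38 (mm10).

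The members and lists were chosen with earlier results of these data known. Named genes were the members, in each list the called genes with the largest change (up to 2 each way) and the gene of highest TPM, and for each member the 3 genes of highest correlation with a mean of at least 1 CPM. The list entries Bex3, Mymk and Mymx had no row under those symbols. Some genes of the myelin list are not reported here and were left out of its counts.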

Additional observations from a re-analysis of the deposited data

How the results depend on the processing

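Mbp and Erbb3 kept their call in all 15 alternatives. The number of members called higher, 3, became 5 with DESeq2 and at an adjusted p under 0.05, 1 with limma on log2(TPM + 1) and in the test against a log2 fold change of 1, and 1 to 5 when libraries were left out. Of all genes, 806 called higher became 986 with DESeq2 and 1163 at an adjusted p under 0.05. The number became 231 with log2(TPM + 1), 361 with log2(TPM + 0.1), 97 in the test against a log2 fold change of 1 and 177 to 890 with a library left out. The 1331 called lower became 1804 with DESeq2, 704 with log2(TPM + 1), 2025 at 0.05, 510 against a log2 fold change of 1 and 523 to 1684 with a library left out. Sox10 was not called at 0.78 with log2(TPM + 1), nor at 1.68 in the test against 1, and leaving out libraries gave 1.45 to 1.89. Cdh19 was not called at 0.92 and 1.54 in the same tests, with 1.40 to 1.77 when libraries were left out. DESeq2 called Foxd3 (1.74) and S100b (1.299), and leaving out libraries gave 1.44 to 2.36 for Foxd3 and 0.12 to 1.84 for Ngfr. The pseudocount of 1 lowers the fold of genes near 1 TPM by construction, and leaving out a library lowers the number of samples. The cause of the other changes was not tested.

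The deviations of same-numbered libraries from their group means had correlations of 0.237, -0.129 and 0.0540. Differently numbered libraries were not compared, so these values cannot decide whether replicate numbers pair the libraries. With the replicate number as a block, 625 genes were called higher and 947 lower, and 2 members higher, Sox10 (1.68, adjusted p = 0.0208) no longer being called. Sox2 and Mag were not called in that fit either (1.57 and 3.86).

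Of the genes named from the related lists, Erbb2, Sort1, Cdh6 and Cdh15 kept their call whichever library was left out. S100a8 did as well, but it passed the filter only through its cKO libraries, so its call could only be higher and carries no weight. Mag, Mpzl2, Gdnf, Sox2, Ncam1, Id2, Sox8, Tead1, Areg, Tgfa, Errfi1, Cdh3 and Cdh13 each lost their call without 1 or more single libraries, at adjusted p-values of up to 0.0402, in the same direction. Drp2 changed direction without fl/fl replicate 3 (range -0.93 to 0.21 over the libraries left out). Rhoa, near 0, turned to -0.0069 with DESeq2 and with its size factors, to -0.022 with filterByExpr, to -0.066 with both TPM scales and ranged from -0.062 to 0.11 when libraries were left out. The difference in the NM_008885.3 share of Pmp22 TPM, -1.74 percentage points, ranged from -3.50 to 1.01 over the libraries left out. Depth limits genes with few control counts, among them Foxd3, Mag, Ugt8a, S100a8 and Adgre1, whose fl/fl libraries held under 30 counts each.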

Other observations

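Of 7 endothelial markers tested, 6 had a log2 fold change above 0 (median 0.91). In 5 of them every cKO library lay above every fl/fl library, as in 29.1% of all tested genes. Kdr, a receptor of vascular endothelial growth factor, measured 8.64, 5.43 and 10.5 CPM in cKO and 1.19, 1.52 and 1.15 CPM in fl/fl libraries (log2 fold change 2.67) and was the single one called higher by edgeR. Egfl7 and the receptor gene Tek stood at 0.95 and 1.26 (adjusted p = 0.0235 and 0.0213), and Pecam1, which encodes CD31, at 0.69 (adjusted p = 0.063). Vwf, a clotting protein of vessel walls, was the exception, called lower at 2.30, 2.78 and 2.51 against 6.96, 5.38 and 7.94 CPM (-1.42). The summed level of the 8 markers was 6.01 to 7.93 TPM in cKO and 2.98 to 5.65 TPM in fl/fl libraries. Of 7 pericyte and smooth muscle markers tested, Abcc9 and Acta2 were called lower by edgeR. Of 9 satellite cell markers tested, Cdh15 and Des were called lower, while Pax7 stood at 0.94 (adjusted p = 0.0062).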
